A study of Mus musculus with 2 samples.

Results

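The imprinted genes examined here were 37 mouse genes that are known to be expressed mainly from the maternal or the paternal allele. They were chosen by gene symbol and were found in the data through the Ensembl identifiers of GENCODE M21 on GRCm38. Of the 39695 gene entries of the series, 34 belonged to these genes. Of the 34, 25 had a mean level of at least 1 RPKM (read counts divided by gene length and by the library's total) over both libraries, 6 lay below that level but above 0, and 3 were listed at 0 in both libraries. *Snrpn*, *Kcnq1ot1* and *Peg13* matched no entry by identifier, so their levels were not analysed here. Promoter windows of *Snrpn* and *Kcnq1ot1* are counted below.

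RNA sequencing of P9 testes, from mice 9 days old, compared the control with Bcas2F/-;Vasa-Cre males, with 1 library for each genotype. *Bcas2* encodes a subunit of the Prp19 complex of the spliceosome, and the comparison asked what its loss from germ cells does to the testis transcriptome. Control males were Bcas2F/-, with a floxed and a deleted *Bcas2* allele and no Cre, so the deleted allele was shared by both groups. In Bcas2F/-;Vasa-Cre males the Cre recombinase, driven in germ cells from late fetal life, removed the remaining floxed allele there, while the somatic cells kept it. The strain is C57BL/6 per the labels, and the methods of the study describe a mixed background of 129 and C57BL/6. How many mice contributed to a library is not given in the sources used here. Each genotype has 1 library, so the differences below could not be checked against replicates and carry no p-value.

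Genomic imprinting marks the parental alleles of a gene with different DNA methylation in the egg and the sperm, so that in the offspring only the allele from the mother or from the father is transcribed. The marks are erased in primordial germ cells and laid down again according to sex, in male germ cells before birth. Most imprinted genes lie in clusters under a shared control region. Many of them govern fetal growth, with paternally expressed genes such as *Igf2* promoting it and maternally expressed genes such as *Cdkn1c* and *Grb10* restraining it. Many are turned down in somatic organs during postnatal life, and in the juvenile testis both the somatic cells and the germ cells can contribute their transcripts. RPKM sums the alleles, so these data measure the total level of each gene and not which allele was used.

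Imprinted transcripts were abundant in both libraries. *H19*, a long non-coding RNA of the maternal allele, had the highest level with 364 RPKM in the control and 279 RPKM in the Bcas2F/-;Vasa-Cre library. *Igf2*, its neighbour and a fetal growth factor, followed with 159 and 147 RPKM. *Plagl1*, a zinc finger transcription factor, had 130 and 143 RPKM. Next came *Ndn*, *Meg3*, *Grb10*, *Peg3* and *Mest*, all between 57.6 and 85.4 RPKM in both libraries. Summed over the listed genes, the level was 1262 RPKM in the control and 1198 RPKM in the Bcas2F/-;Vasa-Cre library. At the other end, *Dlk1*, *Rtl1* and *Rian* were listed at 0 in both, and *Slc22a18*, *Dio3*, *Rasgrf1*, *Usp29*, *Asb4* and *Magel2* lay between 0.0949 and 0.75 RPKM.

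**Figure D1:**
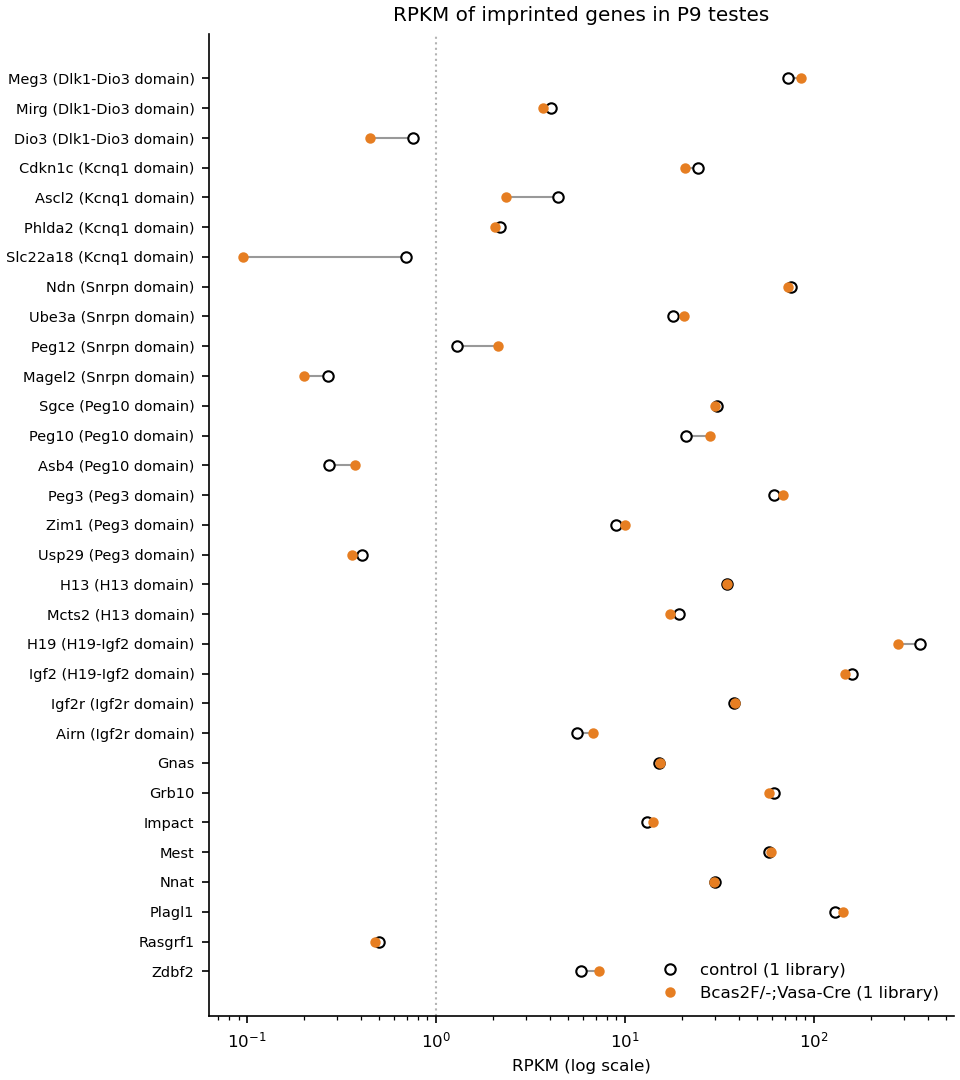
Level of each of the 31 imprinted genes above 0 in control (open circles) and Bcas2F/-;Vasa-Cre (filled circles) testes, on a log scale of RPKM with 1 library per genotype and the imprinted domain in brackets. The 2 circles overlap or touch for most genes, and they stand farthest apart for *Slc22a18*, *Ascl2*, *Dio3* and *Peg12*.

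As a set, the imprinted genes had a median difference near 0 between the 2 libraries. The change of a gene was measured as the log2 ratio of RPKM + 1 in Bcas2F/-;Vasa-Cre over control, in which the added 1 understates the change of genes with a low level. Among the 25 imprinted genes with a mean of at least 1 RPKM, 1 was more than 1.5-fold lower in the Bcas2F/-;Vasa-Cre library, against 1.69% of all 14831 entries at that level. This gene was *Ascl2*. None was more than 1.5-fold higher, against 1.57% of all entries. Neither count sets the imprinted genes apart from these background shares. Below 0 lay 11 genes and above 0 lay 14, against 6873 and 7958 of all 14831 entries. The median log2 ratio was 0.02, the same as the 0.02 over all entries, and the SD was 0.242 over the imprinted genes and 0.259 over all entries.

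Whole reads could be recovered from the RPKM values, which gave a counting interval for each gene. The interval is the 95% Clopper-Pearson interval of the share of reads from the Bcas2F/-;Vasa-Cre library, written as a log2 ratio of RPKM without an added 1, and it covers counting error only, not the spread between animals. It lay below 0 for 5 of the 25 genes, *H19*, *Igf2*, *Ascl2*, *Cdkn1c* and *Grb10*, against 17.9% of all entries with recovered reads. It lay above 0 for 7, *Peg12*, *Peg10*, *Zdbf2*, *Meg3*, *Ube3a*, *Peg3* and *Plagl1*, against 19.9% of all entries. For the other 13 it held 0. An interval narrows with more reads, so it leaves out 0 more readily for abundant genes. Of the 25 genes, 21 had a mean of at least 5 RPKM, against 10663 of all 14831 entries. The shares over all entries, here and below, are not matched for level. For *Igf2*, *Grb10* and *Zdbf2* the values allow fewer reads than were used, and with the fewest reads allowed their intervals also held 0. The same is so for *Sgce*, whose interval held 0 with either count of reads.

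**Figure D2:**
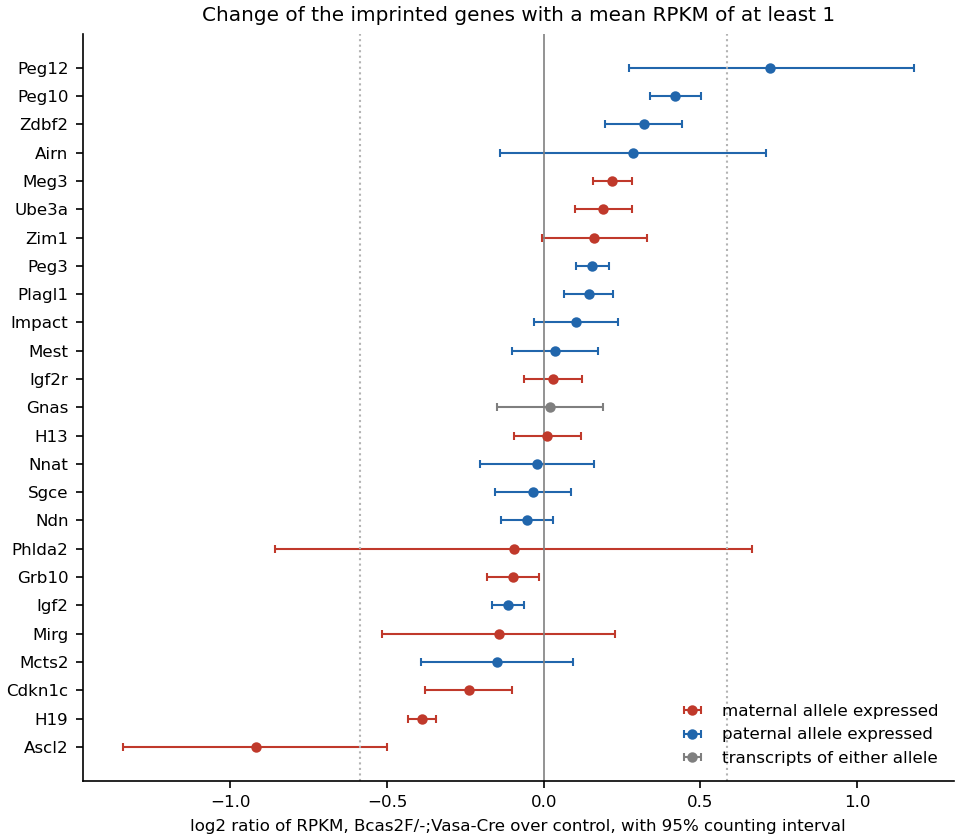
Log2 ratio of RPKM in Bcas2F/-;Vasa-Cre over control for the 25 imprinted genes with a mean of at least 1 RPKM, with 95% counting intervals as bars, coloured by the parental allele known to be expressed. Dotted lines mark 1.5-fold, and *Ascl2* at -0.92 and *Peg12* at 0.72 lie beyond them on this scale.

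**Figure D3:**
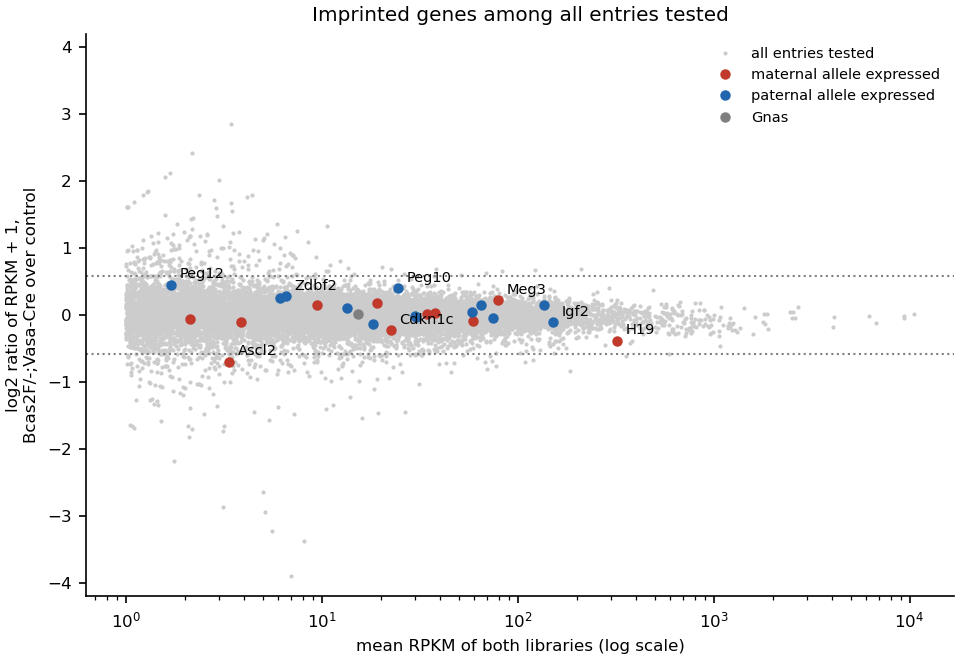
Log2 ratio of RPKM + 1 in Bcas2F/-;Vasa-Cre over control against the mean RPKM of both libraries on a log scale, for all 14831 entries tested (grey) and the 25 imprinted genes (coloured). The imprinted genes lie within the grey cloud, with *Ascl2* below the lower dotted line of 1.5-fold and *H19* at -0.39 between the dotted lines.

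The libraries themselves differed in cell markers. *Bcas2* had 39.5 RPKM in the control and 25.7 RPKM in the Bcas2F/-;Vasa-Cre library, a log2 ratio of -0.60, in whole testes whose somatic cells keep the gene. Spermatogonial markers had a median log2 ratio of -0.35 over 12 genes, 2 of them more than 1.5-fold lower (*Nanos3* and *Stra8*), and their summed level was 1010 and 788 RPKM. Of the 12, 10 lay below 0 and 2 above, against 6873 and 7958 of all 14831 entries. The 2 above were *Nanos2* with 0.49 on 29 and 51 reads and *Sohlh2* with 0.20 on 834 and 937 reads. Meiotic prophase markers had a median of -0.34 over 8 genes, with *Smc1b* more than 1.5-fold lower. The medians were 0.11 over 9 Sertoli genes, 0.12 over 7 interstitial mesenchyme genes, 0.03 over 7 Leydig genes, -0.05 over 7 peritubular myoid genes, -0.01 over 6 endothelial genes and -0.16 over 6 macrophage genes, and *Cyp17a1*, a steroid enzyme of Leydig cells, was more than 1.5-fold higher. All 4 neutrophil genes at this level, *S100a9*, *S100a8*, *Ngp* and *Camp*, were more than 1.5-fold lower. The summed level of the whole neutrophil list of 6 was 26.3 and 3.22 RPKM. Of 6 red cell genes 2 were more than 1.5-fold lower, *Slc4a1* and *Hbb-bt*, while the summed level of all 6 was 980 and 944 RPKM. In whole testes, fewer cells of a type and less RNA per cell cannot be told apart from these values alone. The paper reports no significant difference in the number of PLZF-positive spermatogonia or basal MVH-positive germ cells at slightly later ages. By RT-PCR at P9 it found similar mRNA levels of the spermatogonial genes tested, *Stra8* among them, and lower levels of meiotic prophase genes. The part of the marker differences in the values of the imprinted genes was not tested.

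**Figure D4:**
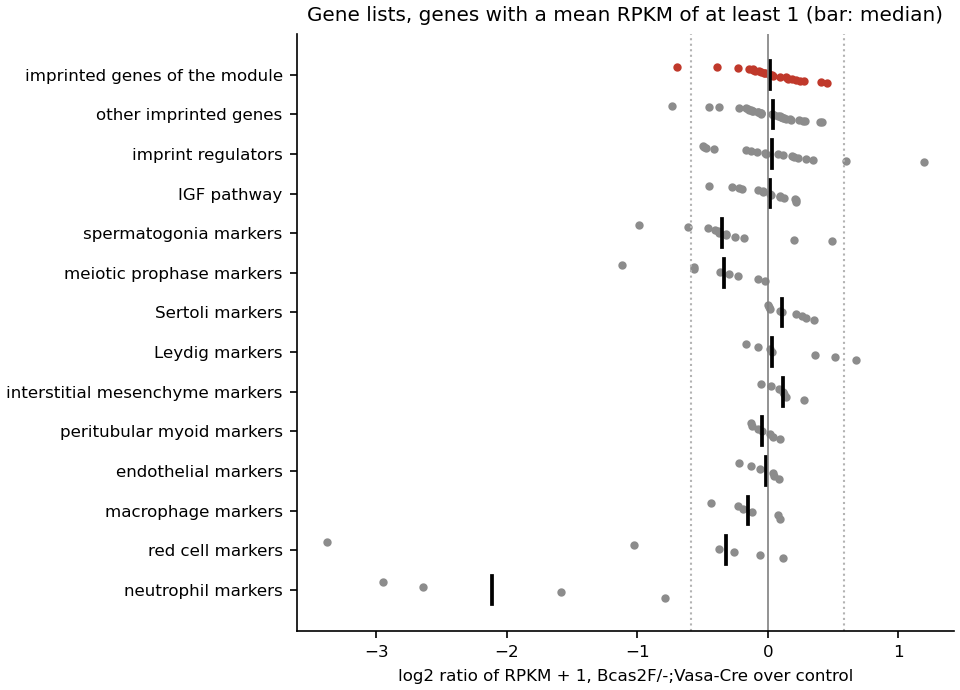
Log2 ratio of RPKM + 1 in Bcas2F/-;Vasa-Cre over control for each gene with a mean of at least 1 RPKM in the imprinted set (red) and in other gene lists (grey), with the median as a black bar and 1.5-fold as dotted lines. The imprinted genes spread around their median of 0.02, whereas the spermatogonial and meiotic prophase medians lie at -0.35 and -0.34.

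The *H19*-*Igf2* domain on distal chromosome 7 held the most abundant transcripts of the 37 genes. *H19* (chr7:142575529-142578143, minus strand) is transcribed from the maternal allele and is the precursor of a growth-restraining microRNA, while a shared imprinting control region and enhancers assign *Igf2* to the paternal allele. *H19* rested on 9213 reads in the control and 6835 in the Bcas2F/-;Vasa-Cre library, and its RPKM was 0.764 times that of the control, with a log2 ratio of RPKM of -0.39 (-0.43 to -0.34). This difference was larger than counting error but under 1.5-fold. Entries with a mean of at least 100 RPKM had an SD of the log2 ratio of 0.152 over 1142 entries, and *H19* lay farther from 0 than this SD. *Igf2* (chr7:142650766-142666816, minus strand) had 0.924 times the control level, with a log2 ratio of RPKM of -0.11 (-0.17 to -0.06), or from -0.231 to 0.0033 with the fewest reads allowed. The partners are expressed from opposite alleles, and the difference of *Igf2* was outside counting error only with the larger count of reads. In GENCODE M21, 64.5% of the exon bases of *Igf2* also belong to other genes, among them an antisense gene, and the counting is not stated to have used strand, so the reads of these genes cannot be told apart.

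The neighbouring *Kcnq1* domain lies under the control of the non-coding RNA *Kcnq1ot1*, which silences a series of maternally expressed genes on the paternal chromosome. *Ascl2* (chr7:142966829-142969264, minus strand), a basic helix-loop-helix factor of trophoblast and intestinal stem cells, fell from 4.43 to 2.35 RPKM. These levels rested on 142 and 73 reads. Its log2 ratio of RPKM + 1 was -0.70, and its log2 ratio of RPKM was -0.92 (-1.34 to -0.50). *Ascl2* was the gene of the set that passed 1.5-fold, and its mean of 3.39 RPKM placed it in the class of 1 to 5 RPKM, where the log2 ratio had an SD of 0.361 over 4168 entries. Its exons overlap no other gene. *Cdkn1c*, the cell cycle inhibitor p57, had 24.5 RPKM in the control and 20.8 RPKM in the Bcas2F/-;Vasa-Cre library, with a log2 ratio of RPKM of -0.24 (-0.38 to -0.10), and 30.7% of its exon bases are shared with an antisense gene. *Phlda2*, a placental growth restrainer, had 2.19 and 2.05 RPKM from 33 and 30 reads, which leaves an interval from -0.86 to 0.66. *Slc22a18*, a membrane transporter, was below the level filter with 0.691 and 0.0949 RPKM. Its 15 and 2 reads gave a log2 ratio of RPKM of -2.86 (-6.04 to -0.76), an interval so wide that the size of the difference is not set.

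The promoter of *Ascl2* is shown as that of the gene with the largest difference among the 25, with its 23 CpG dinucleotides, the sites of DNA methylation, in capitals. The window is chr7:142969215-142969514 of RefSeq GRCm38.p6, minus strand, from 250 bases before to 50 bases after the annotated start.
Ascl2 promoter: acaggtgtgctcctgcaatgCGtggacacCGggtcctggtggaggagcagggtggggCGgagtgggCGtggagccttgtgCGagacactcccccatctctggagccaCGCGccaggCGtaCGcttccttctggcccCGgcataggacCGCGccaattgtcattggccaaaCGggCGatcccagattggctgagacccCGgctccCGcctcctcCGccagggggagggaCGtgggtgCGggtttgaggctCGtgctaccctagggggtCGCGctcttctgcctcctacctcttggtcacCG
The 23 CpG of this window compare with a median of 14 over the promoter windows of the imprinted genes and of 7 over all windows of the same length. Methylation was not measured in these data.

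All 5 genes of the imprinted set on distal chromosome 7 with at least 1 RPKM lay below 0, as did 6873 of all 14831 entries. The genes between them were set beside them. From *H19* to *Osbpl5* the annotation spans 1181 kb (chr7:142575529-143756985) and holds 37 entries, of which 16 reached 1 RPKM. The region was chosen after these values were seen. Of the 11 that were not in the imprinted set, 5 lay below 0 and 6 above, with a median log2 ratio of RPKM + 1 of 0.05. The counting interval lay below 0 for 3 of the 11, *Ins2*, *Cd81* and *Nap1l4*, and above 0 for 0, and 2 of the 6 above 0 were small RNA entries on fewer than 10 reads, so the even split by sign rests largely on values within counting error. Among these neighbours, *Ins2*, *Cd81*, *Tssc4*, *Nap1l4* and *Osbpl5* are themselves reported as imprinted in the mouse. For some of them this is known from the placenta or yolk sac. *Ins2*, an insulin gene next to *Igf2*, had 13.4 and 9.49 RPKM, a log2 ratio of RPKM + 1 of -0.45. *Cd81*, a tetraspanin, had 266 and 243 RPKM and a log2 ratio of -0.13, and *Nap1l4*, a histone chaperone, had 122 and 110 RPKM and a log2 ratio of -0.15. *Osbpl5* at the far end, an oxysterol-binding protein, had 19.6 and 20.3 RPKM and a log2 ratio of 0.05.

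**Figure D5:**
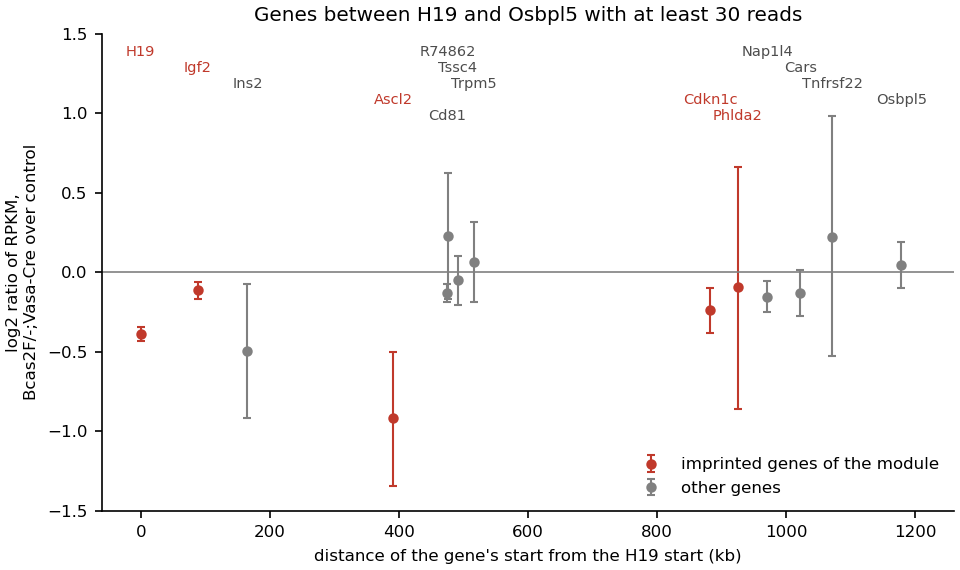
Log2 ratio of RPKM in Bcas2F/-;Vasa-Cre over control, with 95% counting intervals as bars, against the distance of each gene's start from the start of *H19* in kb, for genes with at least 30 reads. The genes of the imprinted set (red) all lie below 0. The other genes (grey), some of them also reported as imprinted, lie on both sides. The intervals of *Phlda2* and *Tnfrsf22* are the widest of those plotted.

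In the *Dlk1*-*Dio3* domain on chromosome 12, the maternal non-coding RNA *Meg3* had the highest listed level. *Meg3* (chr12:109541001-109571726, plus strand) had 73.3 RPKM in the control and 85.4 RPKM in the Bcas2F/-;Vasa-Cre library, from 3948 and 4460 reads, with a log2 ratio of RPKM of 0.22 (0.16 to 0.28). The difference was thus outside counting error and under 1.5-fold. *Mirg*, a microRNA host transcript farther along the same strand, had 4.06 and 3.67 RPKM and an interval from -0.52 to 0.23. *Dio3*, a paternally expressed enzyme that inactivates thyroid hormone, had 0.75 and 0.446 RPKM from 26 and 15 reads. The paternally expressed *Dlk1*, a non-canonical Notch ligand, the retrotransposon-derived *Rtl1* and the small nucleolar RNA host *Rian* were listed at 0 in both libraries. *Rhox5*, a homeobox gene used as a Sertoli cell marker, was also listed at 0, so a 0 in these files is given only as listed.

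In the *Peg3* domain on proximal chromosome 7, *Peg3* was higher in the Bcas2F/-;Vasa-Cre library by more than counting error and under 1.5-fold, and the intervals of *Zim1* and *Usp29* held 0. *Peg3* (chr7:6703892-6730431, minus strand), a paternally expressed zinc finger gene of maternal behaviour and growth, had 61.4 and 68.4 RPKM from 5345 and 5778 reads. Its log2 ratio of RPKM was 0.16 (0.10 to 0.21). *Zim1*, a maternally expressed zinc finger gene beside it, had 8.95 and 10.01 RPKM, with a log2 ratio of RPKM of 0.16 (-0.01 to 0.33). *Usp29*, a ubiquitin protease gene that starts 147 bases from *Peg3* on the opposite strand, had 0.404 and 0.357 RPKM. The divergent pair thus differed widely in level in both libraries, although their promoter windows share 263 bases. The *Peg3* window (chr7:6730370-6730669 of RefSeq GRCm38.p6, minus strand) is shown because it covers this shared stretch, with its 13 CpG dinucleotides in capitals.
Peg3 promoter: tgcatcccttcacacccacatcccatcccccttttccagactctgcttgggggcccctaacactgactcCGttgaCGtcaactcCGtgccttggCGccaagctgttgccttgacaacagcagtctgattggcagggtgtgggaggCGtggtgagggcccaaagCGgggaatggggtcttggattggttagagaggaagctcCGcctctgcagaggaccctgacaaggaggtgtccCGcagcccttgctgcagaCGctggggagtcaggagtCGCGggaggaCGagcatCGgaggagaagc

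The *Snrpn* domain of central chromosome 7 is the region of the Prader-Willi and Angelman syndromes. There *Ube3a* and *Peg12* were higher in the Bcas2F/-;Vasa-Cre library by more than counting error, and the intervals of *Ndn* and *Magel2* held 0. *Ndn*, a paternally expressed MAGE family gene of neurons, was the most abundant with 76.0 and 73.3 RPKM, and its interval from -0.13 to 0.03 held 0. *Ube3a*, a ubiquitin ligase imprinted in neurons, had 17.9 and 20.5 RPKM and a log2 ratio of RPKM of 0.19 (0.10 to 0.28), and 27.3% of its exon bases lie opposite antisense genes. *Peg12* (chr7:62461871-62464510, minus strand), a paternally expressed single-exon gene related to the FRAT regulators of Wnt signalling, had 1.29 RPKM in the control and 2.14 RPKM in the Bcas2F/-;Vasa-Cre library. Its 68 and 109 reads gave a ratio of 1.65 and a log2 ratio of RPKM of 0.72 (0.27 to 1.18), the highest of the 25 genes. With 1 added to each RPKM its log2 ratio was 0.45, which is under 1.5-fold. *Magel2*, another MAGE family gene, had 0.269 and 0.1997 RPKM from 25 and 18 reads.

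The promoter window of *Peg12* (chr7:62464461-62464760 of RefSeq GRCm38.p6, minus strand) is shown for comparison with that of *Ascl2*, as the genes with the highest and the lowest log2 ratio of the 25, again with CpG dinucleotides in capitals.
Peg12 promoter: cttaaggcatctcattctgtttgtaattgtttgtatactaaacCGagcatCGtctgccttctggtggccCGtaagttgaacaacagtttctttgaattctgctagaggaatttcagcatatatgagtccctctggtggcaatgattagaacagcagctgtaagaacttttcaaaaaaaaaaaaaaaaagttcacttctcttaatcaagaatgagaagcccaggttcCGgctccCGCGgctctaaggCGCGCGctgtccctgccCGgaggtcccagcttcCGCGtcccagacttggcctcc
It holds 12 CpG dinucleotides, against 23 in the window of *Ascl2*.

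The *Peg10* domain on chromosome 6 contained a divergent pair with unlike differences. *Peg10* (chr6:4747306-4760517, plus strand), a gene derived from a retrotransposon and needed in the placenta, had 21.01 and 28.1 RPKM. From 2092 and 2718 reads its ratio was 1.34, with a log2 ratio of RPKM of 0.42 (0.34 to 0.50). *Sgce* (chr6:4674350-4747207, minus strand), which encodes epsilon-sarcoglycan, is also paternally expressed and starts 99 bases from *Peg10* on the opposite strand. Its level was 30.7 and 29.9 RPKM, with an interval from -0.16 to 0.09, or -0.31 to 0.24 with the fewest reads allowed. The intervals of the pair do not overlap with either count of reads, and neither gene shares exon bases with another gene. *Asb4*, a maternally expressed gene of a ubiquitin ligase adaptor, had 0.272 and 0.374 RPKM from 12 and 16 reads.

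In 2 domains where a gene of one parental allele lies within or beside a gene of the other, no difference passed counting error. *Igf2r*, the maternally expressed receptor that clears IGF2, had 37.6 and 38.4 RPKM and an interval from -0.06 to 0.12. *Airn*, the paternal antisense RNA that silences it, had 5.56 and 6.77 RPKM from 88 and 104 reads, with an interval from -0.14 to 0.71. The interval of *Igf2r* is narrow, whereas that of *Airn* is wide. *H13*, a signal peptide peptidase, had 34.6 and 34.8 RPKM with an interval from -0.09 to 0.12. *Mcts2*, a retrogene inside an intron of *H13* with paternal expression, had 19.3 and 17.4 RPKM with an interval from -0.39 to 0.09. As *Mcts2* is a retrocopy, its reads can be confused with those of its parent gene, and its level is uncertain.

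The genes outside these clusters mostly had similar levels in the 2 libraries. *Mest*, a paternally expressed hydrolase gene, had 57.9 and 59.4 RPKM and an interval from -0.10 to 0.17, and 23.1% of its exon bases lie opposite *Copg2*. *Nnat*, a proteolipid gene of the developing brain, had 30.1 and 29.7 RPKM and an interval from -0.20 to 0.16. *Gnas*, whose locus makes transcripts of either allele and encodes the stimulatory G protein alpha subunit, had 15.2 and 15.4 RPKM and an interval from -0.15 to 0.19. *Impact*, a regulator of translation, had 13.03 and 14.0 RPKM and an interval from -0.03 to 0.24. The values of the remaining genes follow. *Plagl1* had a log2 ratio of RPKM of 0.14 (0.06 to 0.22). *Grb10*, an adaptor that restrains insulin and IGF signalling, had 61.6 and 57.6 RPKM, a log2 ratio of RPKM of -0.10 (-0.18 to -0.01), or -0.22 to 0.02 with the fewest reads allowed. *Zdbf2*, a paternally expressed zinc finger gene, had 5.83 and 7.27 RPKM and a log2 ratio of RPKM of 0.32 (0.20 to 0.44), or -0.06 to 0.70 with the fewest reads allowed. *Rasgrf1*, a Ras exchange factor, had 0.4995 and 0.475 RPKM from 26 and 24 reads.

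*Mest* is also shown as an example of the hexamer TGCCGC, the core of the sequence bound in its methylated form by ZFP57, a zinc finger protein that maintains imprints. The window (chr6:30737800-30738099 of RefSeq GRCm38.p6, plus strand) has 2 matches, in capitals, both on the reverse strand and so read as GCGGCA.
Mest promoter: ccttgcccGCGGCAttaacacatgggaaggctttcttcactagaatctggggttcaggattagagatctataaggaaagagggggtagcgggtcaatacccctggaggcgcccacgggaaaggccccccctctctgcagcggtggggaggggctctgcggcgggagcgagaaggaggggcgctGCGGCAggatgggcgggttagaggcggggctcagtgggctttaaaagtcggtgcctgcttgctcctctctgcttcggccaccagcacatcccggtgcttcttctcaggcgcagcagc
Searched on both strands, the hexamer was found in 11 of 45 promoter windows of the 30 imprinted genes with a window (24.4%), against 11.6% of all 32851 windows. Several genes have more than 1 window, and some of these overlap. The imprinted windows were also richer in CpG, and the hexamer contains a CpG. A match is a stretch of letters and not a bound site. *Ascl2*, *Peg12* and *Peg3* had no match in their windows.

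Split by parental allele, maternally and paternally expressed genes had overlapping values. Over 11 maternally expressed genes with at least 1 RPKM the median log2 ratio of RPKM + 1 was -0.06, with 6 below 0 and 5 above. Over 13 paternally expressed genes it was 0.10, with 5 below 0 and 8 above. Of all 14831 entries, 6873 lay below 0 and 7958 above. The summed level of the maternal list was 635 and 555 RPKM, of which *H19* made 364 and 279 RPKM, and that of the paternal list was 612 and 628 RPKM. Intervals lay below 0 for 4 and above 0 for 2 of the maternal list, and below 0 for 1 and above 0 for 5 of the paternal list, against 17.9% and 19.9% of all entries. With the fewest reads allowed, the intervals of *Grb10* in the maternal list and of *Igf2* and *Zdbf2* in the paternal list held 0. The maternal values ranged from -0.70 to 0.22 and the paternal values from -0.14 to 0.45. With 1 library per genotype the difference between the lists was not tested.

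The wider IGF pathway, in which *Igf2*, *Igf2r* and *Grb10* act, had 15 genes with at least 1 RPKM. None was past 1.5-fold on the scale of RPKM + 1, against 1.69% of all entries lower and 1.57% higher by that much. This count does not set the pathway apart from the background shares. The median log2 ratio of RPKM + 1 of the 15 genes was 0.02, with 7 below 0 and 8 above, against 6873 and 7958 of all 14831 entries. The most abundant were the binding proteins *Igfbp4* with 179 and 170 RPKM, *Igfbp7* with 158 and 154 RPKM and *Igfbp6* with 115 and 116 RPKM. Intervals lay below 0 for 5 of the 15 genes and above 0 for 5, against 17.9% and 19.9% of all entries. *Igf2bp3*, an RNA-binding protein of *Igf2* mRNA named after its values were seen, had 3.89 and 2.57 RPKM, a log2 ratio of -0.45 with 1 added and of -0.60 (-0.85 to -0.35) without, which is past 1.5-fold on the second scale. Among 18 genes that set, protect or erase imprints, 2 were more than 1.5-fold higher, against 1.57% of all entries, and none was lower by that much, against 1.69%. *Dppa3*, which protects methylation in the zygote, rose from 1.19 to 4.01 RPKM on 18 and 59 reads, a log2 ratio of RPKM + 1 of 1.20. *Tdg*, a glycosylase of active demethylation, rose from 40.8 to 62.4 RPKM on 996 and 1479 reads, a log2 ratio of RPKM + 1 of 0.60. The most abundant were the co-repressor *Trim28* with 317 and 299 RPKM, the histone methyltransferase *Ehmt2* with 199 and 196 RPKM and the de novo methyltransferase *Dnmt3a* with 90.9 and 98.4 RPKM. Their median was 0.03, with intervals below 0 for 5 genes and above 0 for 7, against the same 17.9% and 19.9% of all entries.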

How the data were processed

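Total RNA was isolated from whole P9 testes, and the paper describes sequencing of mRNA, with paired-end reads. Reads were aligned with TopHat2 2.0.9 and counted with HTSeq by the authors, who deposited 1 RPKM value per gene and library. The submitters' processing notes name mm10 as the build. The annotation release, the gene lengths behind RPKM and the strand setting of the counting are not given in the sources used here. Entries were matched by Ensembl identifier to GENCODE M21 (37606 of 39695, 94.7%).

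Log2 ratios of RPKM + 1 were computed for the 14831 entries with a mean of at least 1 RPKM, and genes past 1.5-fold were counted. Libraries of 19918750 (control) and 19331687 (Bcas2F/-;Vasa-Cre) reads were recovered from the steps of the RPKM values, and 99.9% of 21201 genes above 0 then gave whole reads (gene length whole within 0.002 bases). The reads of *Plagl1* may fit by chance. Intervals are Clopper-Pearson at 95%. The procedures were tested on simulated data. Promoter windows came from RefSeq GRCm38.p6.

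All 37 imprinted genes were accounted for. Of the other lists the genes past 1.5-fold and up to 3 of the highest level were named, with *Bcas2*. *Rhox5*, *Nanos2*, *Sohlh2* and the neighbours of *Igf2* and *H19* were named after their values were seen. The members and lists were chosen with earlier results of these data known. Alternatives were other pseudocounts, filters and scalings. Values were computed with pandas 2.3.3, numpy 2.4.6 and scipy 1.17.1 in Python 3.11.15 and plotted with matplotlib 3.10.9.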

Additional observations from a re-analysis of the deposited data

How the results depend on the processing

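Low imprinted genes moved with the pseudocount. From 1 to 0.01, the log2 ratio went from -0.63 to -2.74 for *Slc22a18*, from -0.28 to -0.74 for *Dio3*, from 0.11 to 0.44 for *Asb4*, from -0.08 to -0.41 for *Magel2*, from 0.45 to 0.72 for *Peg12* and from -0.70 to -0.91 for *Ascl2*. The sign differed for *H13* with the median of all entries set to 0 and for *Nnat* with RPKM rescaled to an equal sum per library. With a pseudocount of 0.1 or 0.01, 1 imprinted gene, *Peg12*, was more than 1.5-fold higher. Without a filter 2 were more than 1.5-fold lower, *Ascl2* and *Slc22a18*, and with a mean of at least 5 RPKM 0 were, because *Ascl2* lies below that level. The share of all entries past 1.5-fold was 3.26% as reported, 6.14% and 6.58% with pseudocounts of 0.1 and 0.01, 4.90% rescaled to an equal sum, 2.47% without a filter, 1.41% at a mean of at least 5 RPKM and 1.93% with at least 30 reads. The median of the imprinted genes ranged from -0.02 without a filter to 0.05 rescaled. With the fewest reads the values allow, an alternative chosen after seeing the data, 3 intervals lay below 0 in place of 5 and 6 above 0 in place of 7. No paired analysis was possible because each genotype has 1 library, and no library could be left out. Depth limits genes such as *Phlda2*, *Slc22a18* and *Dio3*, whose intervals span more than 1.5-fold.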

Other observations

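Of 51 other genes reported as imprinted in the mouse, 47 had an entry, 4 of these were listed at 0 in both libraries, and 32 had a mean of at least 1 RPKM. Their median log2 ratio of RPKM + 1 was 0.04, with 15 below 0 and 17 above, against 6873 and 7958 of all 14831 entries. The most abundant were *Gatm*, the first enzyme of creatine synthesis, with 615 and 592 RPKM, *Cd81* with 266 and 243 RPKM, and *Dcn*, the matrix proteoglycan decorin, with 230 and 251 RPKM. Of the 32, 1 was more than 1.5-fold lower, the ubiquitin ligase gene *Herc3*, against 1.69% of all entries. *Herc3* fell from 31.6 to 18.6 RPKM on 892 and 510 reads, a log2 ratio of RPKM + 1 of -0.73. None of the 32 rose past 1.5-fold, against 1.57% of all entries. Neither count sets these genes apart from the background shares.

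Small RNA genes of the *Dlk1*-*Dio3* domain were mostly listed at 0. Some overlap exons of *Meg3*, *Rian* or *Mirg*, and how shared reads were counted is not given in the sources used here. Of its 59 microRNA entries 53 were listed at 0 in both libraries and 1 reached a mean of 1 RPKM, and all 23 small nucleolar RNA entries were listed at 0. The paper describes sequencing of mRNA, so a 0 of a small RNA gene is given only as listed. Of the methylation genes, 3, chosen after their values were seen, were lower in the Bcas2F/-;Vasa-Cre library by less than 1.5-fold. *Dnmt1*, the maintenance methyltransferase, had 34.2 and 24.1 RPKM, a log2 ratio of RPKM + 1 of -0.49. *Uhrf1*, its cofactor, had 51.0 and 35.9 RPKM, a log2 ratio of -0.50, and *Dnmt3b*, a de novo methyltransferase, had 21.4 and 15.1 RPKM, a log2 ratio of -0.48. Spermatogonial markers had a median of -0.35 in the same libraries, and their part in these values was not tested.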
